A study of Mus musculus with 6 samples.

Results

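Lysosomes are acidic organelles in which hydrolases take apart proteins, glycans and lipids that reach them by endocytosis and autophagy. A rotary proton pump, the V-ATPase, acidifies the lumen: its membrane-embedded V0 sector conducts protons and its cytosolic V1 sector hydrolyses ATP. The related transcription factors TFEB, TFE3 and MITF bind a palindromic promoter element shared by many lysosomal genes, and inherited loss of single hydrolases or activators causes storage disorders, many of which damage neurons. The genes described here were the lysosomal hydrolases, their activators, the membrane proteins, the V-ATPase subunits and the 3 transcription factors, 47 genes chosen by name from the 55385 genes of the expression table. Of these, 46 averaged at least 1 FPKM (a level scaled by transcript length and by library size) over the 6 libraries and were tested, and Mitf did not.

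The cells were Neuro2A (N2A), an established mouse neuroblastoma line. In 3 libraries, si-circCpsf6, the cells had received a small interfering RNA against circCpsf6, a circular RNA, and in 3 others, si-NC, a control small interfering RNA, both at 100 nM with a lipid transfection reagent. Nothing in the labels states that replicates are separate cultures, and a p-value therefore reflects library-to-library spread that could be technical. No value of circCpsf6 itself was used here, and the knockdown was therefore not checked.

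The libraries each held 12671 to 13080 genes at 1 FPKM or more, and mitochondrial protein-coding genes took 16.4% to 18.5% of the summed FPKM in si-circCpsf6 and 15.0% to 20.6% in si-NC. Of 11 neuroblast markers, 10 were expressed, among them the transcription factors Phox2a, Hand2, Gata3 and Isl1. The summed level of the 11 markers was 354 to 429 FPKM in si-circCpsf6 and 531 to 595 FPKM in si-NC, and Chga, a granule protein, fell (log2 fold change -1.10, limma adjusted p = 0.0335). Chga and Hand2 made up most of the sum, and 4 of the 10 tested markers, Elavl4, Gata3, Stmn2 and Th, had log2 fold changes of 0.66, 0.30, 0.24 and 0.01. Macrophages are rich in lysosomes, and 8 macrophage and microglia markers summed to 9.08, 2.04 and 3.07 FPKM in si-circCpsf6 replicates 1 to 3, against 10.9, 1.71 and 2.99 FPKM in si-NC replicates 1 to 3. Most of the sum in replicate 1 was Lyz2, and the leukocyte gene Ptprc did not exceed 0.02 FPKM in any library. Tyrobp, too low to be tested, read 0.44, 0.74 and 0.74 FPKM in si-circCpsf6, against 0.35, 0.19 and 0.0 FPKM in si-NC. Its groups were apart, and those of the other macrophage and microglia markers overlapped. The part of these marker differences in the lysosomal values was not tested. Of the glial genes, Mbp read 0.99 to 2.68 FPKM in si-circCpsf6 and 2.46 to 3.23 FPKM in si-NC, and Aqp4 and Olig2 were listed at 0 throughout, as were the melanocyte genes Tyr and Dct. In bulk RNA, fewer cells of a type and less RNA per cell cannot be told apart.

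Lysosomal transcripts were more often higher than lower in si-circCpsf6, by small amounts. The log2 fold change, taken on log2(FPKM + 1) with si-circCpsf6 over si-NC, was above 0 for 32 of 46 genes (69.6%), while 47.2% of all 12974 tested genes were above 0. The median was 0.25, against -0.02 over all tested genes, and single values ran from -0.68 to 1.16. By limma with Benjamini-Hochberg adjustment over all tested genes, 2 of 46 rose at an adjusted p under 0.05 (4.35%), where 0.902% of all tested genes did, and none fell, where 0.786% did. Those that rose were Asah1, which encodes acid ceramidase, and Gm2a, the activator that presents GM2 ganglioside to its hydrolase. At an unadjusted p under 0.05, 12 were higher (26.1%, against 10.2% of all tested genes) and 2 were lower (4.35%, against 10.1%). The 3 si-circCpsf6 values all lay above the 3 si-NC values for 17 genes (37.0%, against 12.8%) and all below them for 3 (6.52%, against 14.0%).

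**Figure D1:**
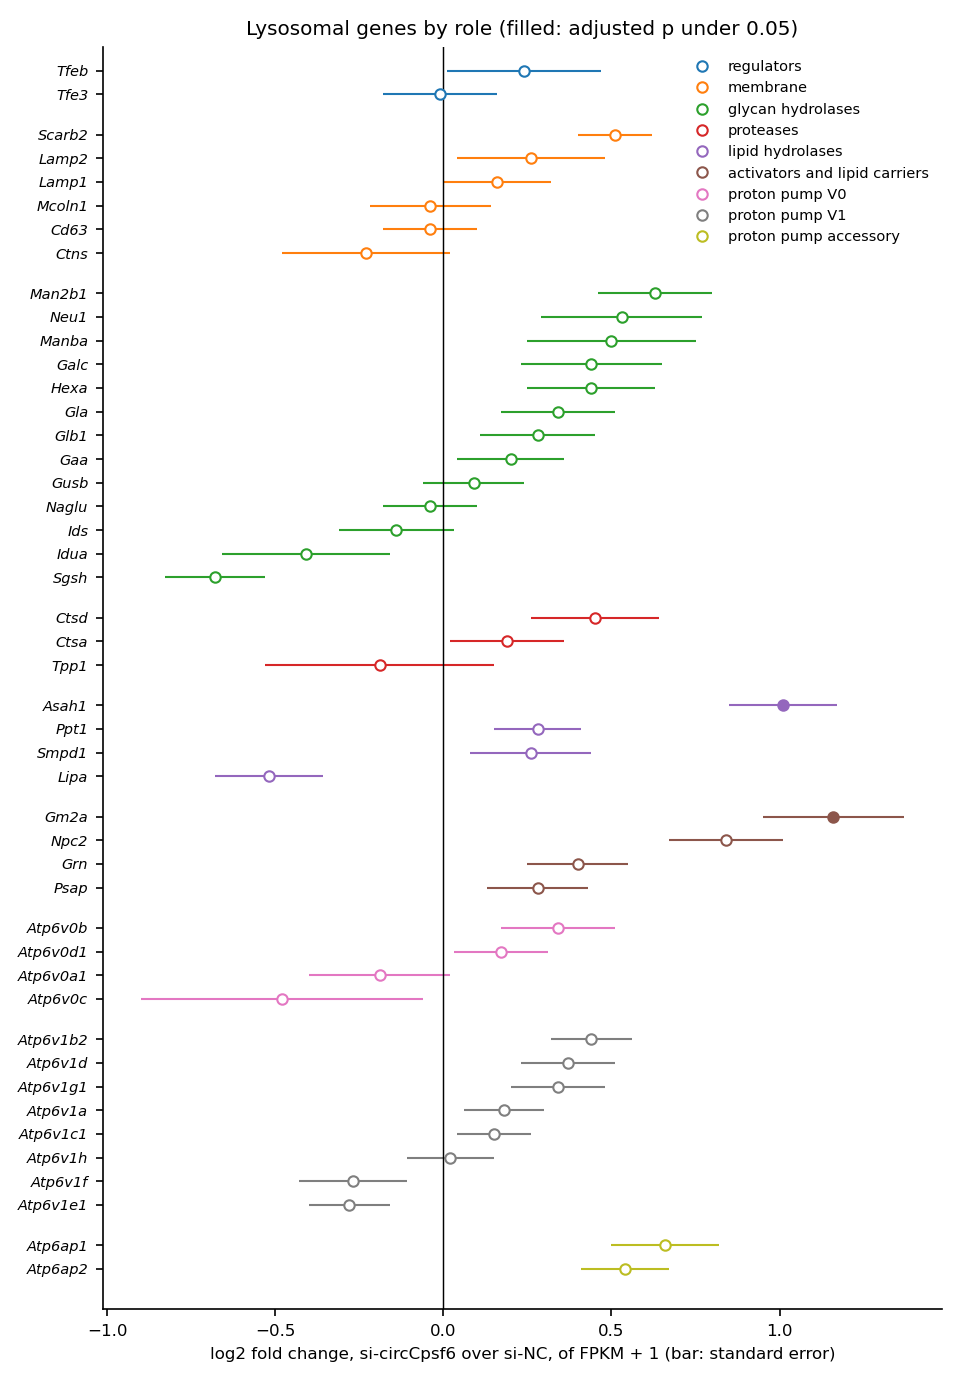
Log2 fold change (si-circCpsf6 over si-NC, of FPKM + 1) on the x axis for the 46 tested lysosomal genes, grouped by role; points are limma estimates, bars their standard errors (n = 3 libraries per group) and filled points have an adjusted p under 0.05. Asah1 at 1.01 and Gm2a at 1.16 are the filled points, 32 genes lie right of 0, and Sgsh at -0.68 lies farthest to the left.

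Summed over all 47 genes, the level was 2311, 1986 and 1964 FPKM in si-circCpsf6 replicates 1 to 3, against 1655, 1858 and 1591 FPKM in si-NC replicates 1 to 3. The groups did not overlap, and a single library in each group stood highest. Replicate 1 was the highest si-circCpsf6 library for 27 of 46 genes (58.7%), compared with 32.2% of all tested genes. Replicate 2 was the highest si-NC library for 26 of 46 (56.5%), compared with 40.3%. Without si-circCpsf6 replicate 1, the median log2 fold change was 0.19 and 33 genes stood above 0.

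Among the transcription factors that control lysosomal genes, Tfeb and Mitf were expressed at low levels. The groups overlapped for both of them and for Tfe3. Tfe3 read 6.54, 8.18 and 6.08 FPKM in si-circCpsf6, against 6.50, 8.39 and 6.15 FPKM in si-NC (log2 fold change -0.01 ± 0.17 SE, limma adjusted p = 0.976). Tfeb, the best known of these regulators, read 1.89, 1.21 and 2.04 FPKM in si-circCpsf6, against 2.00, 0.83 and 1.15 FPKM in si-NC (0.24 ± 0.23, limma adjusted p = 0.611). Mitf, better known for its role in pigment cells, read 0.11, 0.94 and 0.76 FPKM in si-circCpsf6, against 0.24, 0.27 and 0.27 FPKM in si-NC. The si-NC values of Mitf lay between the lowest and the highest si-circCpsf6 values. These are transcript levels, and the location and phosphorylation of the proteins, through which TFEB and TFE3 are known to be regulated, were not measured.

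The promoter element of these factors, the CLEAR element, has TCACGTGA at its core, which is its own reverse complement and so reads the same on both strands. In windows from 250 bases before to 50 bases after the annotated start (RefSeq, GRCm38.p6), it stood in 6 of the 42 member genes with a window (14.3%), in 304 of 27025 genes overall (1.12%) and in 206 of 8860 tested genes (2.33%). The shorter CACGTG, which the core contains, stood in 12 of 42 windows (28.6%) and in 12.0% of those of tested genes. The reference table gave no window for Asah1, Atp6v1b2, Atp6v1c1, Atp6v1g1 or Atp6v1h. A match describes the letters and is not a shown binding site. The matching stretches are given on the gene's strand, with the core in capitals, since they carry the element that the regulators above bind:
Ctsa (chr2:164833748-164833796, plus strand): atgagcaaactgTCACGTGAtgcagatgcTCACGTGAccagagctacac
Gla (chrX:134601181-134601245, minus strand): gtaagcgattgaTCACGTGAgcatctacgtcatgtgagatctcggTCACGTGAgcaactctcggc
Ctsd (chr7:142387907-142387938, minus strand): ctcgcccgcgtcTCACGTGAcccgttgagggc
Mcoln1 (chr8:3500461-3500492, plus strand): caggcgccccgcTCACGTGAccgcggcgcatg
Atp6v0d1 (chr8:105566049-105566080, minus strand): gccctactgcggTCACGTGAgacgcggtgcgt
Atp6v1a (chr16:44139372-44139403, minus strand): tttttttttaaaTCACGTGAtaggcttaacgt

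Ctsa and Gla each held 2 copies of the core. The log2 fold changes of the 6 genes were 0.45 for Ctsd, 0.34 for Gla, 0.19 for Ctsa, 0.18 for Atp6v1a, 0.17 for Atp6v0d1 and -0.04 for Mcoln1, and none passed the test. The windows of Gm2a and of Npc2, the genes with the highest log2 fold changes among those with a window, held no TCACGTGA.

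Activators and lipid carriers, small proteins that lift lipids out of membranes or hand them to enzymes, had the highest median log2 fold change of the role groups, 0.62. All 4 were above 0 and had si-circCpsf6 wholly above si-NC, as did 12.8% of all tested genes. Of the 4, 1 passed the test, where 0.902% of all tested genes rose. Gm2a (chromosome 11, 55098115 to 55113029, GRCm38, plus strand) read 21.4, 12.9 and 20.1 FPKM in si-circCpsf6, against 7.66, 8.51 and 6.24 FPKM in si-NC. The lowest si-circCpsf6 library exceeded the highest si-NC library by more than the whole si-NC range. Gm2a rose, with means of 18.1 ± 4.57 FPKM in si-circCpsf6 and 7.47 ± 1.15 FPKM in si-NC (SD, n = 3 each; log2 fold change 1.16 ± 0.21 SE, limma adjusted p = 0.0456). Leaving out any 1 of the 6 libraries kept the log2 fold change between 1.03 and 1.37 and ended the call (limma adjusted p from 0.0578 to 0.189). Npc2, which carries cholesterol in the lysosomal lumen, read 33.8, 21.6 and 25.4 FPKM in si-circCpsf6, against 14.8, 13.7 and 14.5 FPKM in si-NC. Its groups were apart, with a log2 fold change of 0.84 ± 0.17 (limma adjusted p = 0.0595). In the authors' deposited table the q-values of Gm2a, Asah1 and Npc2 are all given as 0.00, to 2 decimals.

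Psap and Grn, the other two of this group, differed less. Psap, the precursor of the saposins that activate several sphingolipid hydrolases, was among the most abundant members at 379, 315 and 326 FPKM in si-circCpsf6, against 271, 306 and 264 FPKM in si-NC (log2 fold change 0.28 ± 0.15, limma adjusted p = 0.358). Grn, which encodes progranulin, read 50.9, 38.2 and 43.7 FPKM in si-circCpsf6, against 35.6, 34.9 and 29.0 FPKM in si-NC (0.40 ± 0.15, limma adjusted p = 0.201). Both sets of values stood apart by a narrow margin. Grn overlaps Fam171a2 on the opposite strand, which averaged 12.8 FPKM, and without strand information their reads cannot be told apart where they overlap.

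Among the 4 lipid hydrolases, Asah1 rose and Lipa had the lowest value, with groups apart in opposite directions. Asah1, which splits ceramide into sphingosine and a fatty acid (chromosome 8, 41340197 to 41374773, minus strand), read 76.5, 64.7 and 54.1 FPKM in si-circCpsf6, against 32.3, 28.7 and 33.8 FPKM in si-NC. Every si-circCpsf6 library exceeded every si-NC library by a wide margin. The means were 65.1 ± 11.2 FPKM in si-circCpsf6 and 31.6 ± 2.61 FPKM in si-NC (SD, n = 3 each), a log2 fold change of 1.01 ± 0.16 SE (limma adjusted p = 0.0335). Leaving out any 1 of the 6 libraries kept the log2 fold change between 0.89 and 1.13, and ended the call (limma adjusted p from 0.0517 to 0.151). Asah1 was also the most abundant of the 4.

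Lipa, the acid lipase that frees cholesterol and fatty acids from esters (chromosome 19, 34492318 to 34527474, minus strand), read 1.18, 1.15 and 1.60 FPKM in si-circCpsf6, against 2.47, 2.51 and 1.95 FPKM in si-NC. Its groups did not overlap, with a log2 fold change of -0.52 ± 0.16 (limma adjusted p = 0.141). Ppt1, which removes palmitate from proteins, read 13.1, 12.5 and 12.2 FPKM in si-circCpsf6, against 9.63, 11.9 and 9.35 FPKM in si-NC (0.28 ± 0.13, limma adjusted p = 0.291). Ppt1 overlaps Cap1 on the opposite strand, at 11.9 FPKM on average. Smpd1, acid sphingomyelinase, averaged 9.28 ± 2.53 FPKM in si-circCpsf6 and 7.45 ± 0.278 FPKM in si-NC (SD, n = 3 each), and its groups overlapped.

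**Figure D2:**
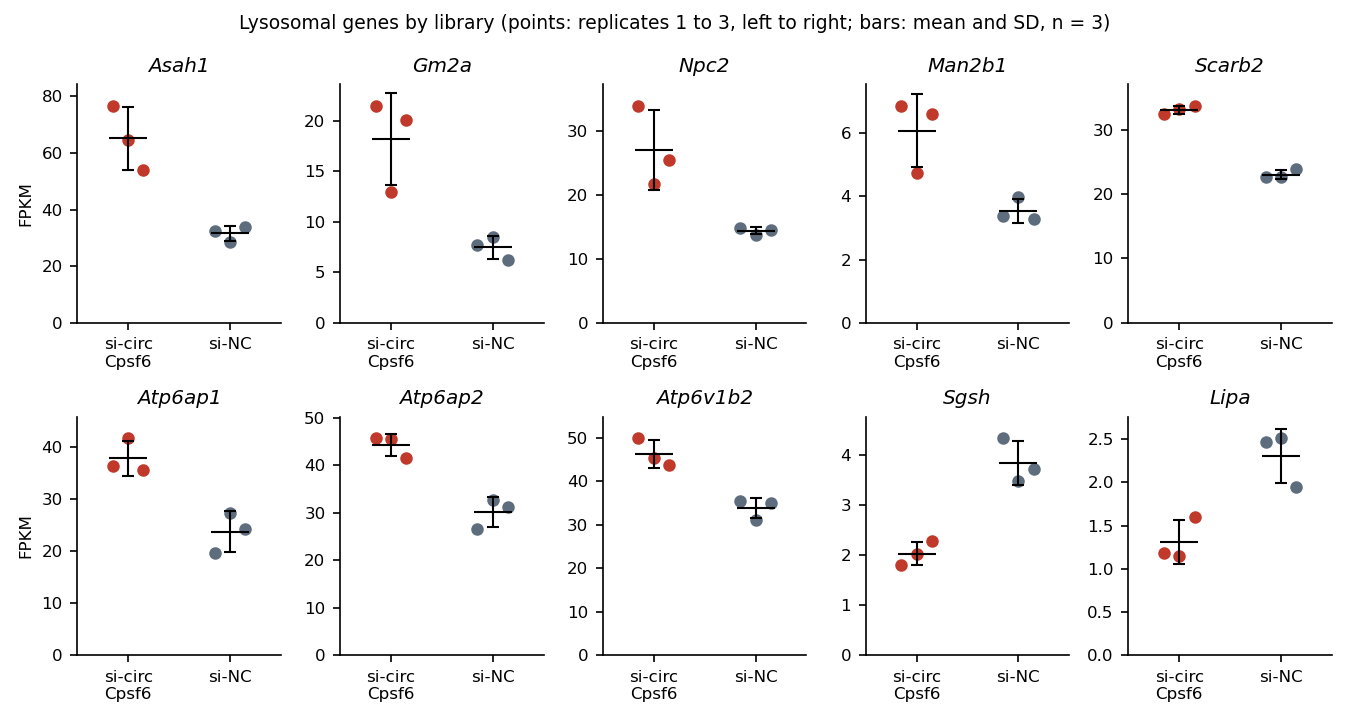
FPKM on the y axis (linear, from 0) in each library for 10 lysosomal genes, si-circCpsf6 left in red and si-NC right in grey; points are replicates 1 to 3 from left to right, bars the mean and SD (n = 3). The groups are apart in all 10 panels, with si-circCpsf6 higher in the first 8 and lower for Sgsh and Lipa. All 10 come from the genes with groups apart, 17 higher and 3 lower of 46 tested, so this separation follows from the choice. Of the 10, Asah1 and Gm2a passed the test.

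None of the 13 hydrolases of glycans and glycolipids passed the test: 9 had a log2 fold change above 0 and 4 below, with a median of 0.28. Man2b1, lysosomal alpha-mannosidase, read 6.85, 4.75 and 6.61 FPKM in si-circCpsf6, against 3.37, 3.97 and 3.27 FPKM in si-NC (log2 fold change 0.63 ± 0.17, limma adjusted p = 0.0974). Hexa, the alpha subunit of the beta-hexosaminidase that cleaves GM2, read 50.1, 36.6 and 31.7 FPKM in si-circCpsf6, against 30.4, 30.0 and 24.9 FPKM in si-NC (0.44 ± 0.19, limma adjusted p = 0.246). Both genes had si-circCpsf6 values wholly above si-NC values, Hexa by a small margin set by si-circCpsf6 replicate 3. They were the 2 of 13 that did (15.4%, near the 12.8% of all tested genes). Wholly below was 1 of the 13 (7.69%, against 14.0%).

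Neu1, a sialidase, read 16.2, 9.94 and 8.01 FPKM in si-circCpsf6, against 7.12, 8.28 and 6.46 FPKM in si-NC (0.53 ± 0.24, limma adjusted p = 0.267). Only replicate 1 of si-circCpsf6 stood well above the others. Galc, which removes galactose from galactosylceramide, read 1.58, 1.70 and 1.91 FPKM in si-circCpsf6, against 0.75, 1.64 and 0.76 FPKM in si-NC (0.44 ± 0.21, limma adjusted p = 0.287). Manba, beta-mannosidase, averaged 3.52 ± 1.43 FPKM in si-circCpsf6 and 2.10 ± 0.477 FPKM in si-NC, and Gla, alpha-galactosidase A, 5.97 ± 0.215 FPKM in si-circCpsf6 and 4.59 ± 1.21 FPKM in si-NC (SD, n = 3 each). Without si-circCpsf6 replicate 1 the log2 fold change was 0.27 for Neu1, 0.28 for Manba and 0.26 for Hexa. Each of Neu1, Galc, Manba and Gla had 1 si-NC value above its lowest si-circCpsf6 value. Gaa, the acid alpha-glucosidase that degrades glycogen, had the highest level of the 13, 46.9 ± 7.86 FPKM in si-circCpsf6 and 40.5 ± 3.62 FPKM in si-NC (SD, n = 3 each), also with overlap. Several of these genes overlap expressed genes in the annotation: Tmppe with Glb1, Dgkq with Idua and Oaz2-ps with Manba, at 1.77 to 2.24 FPKM on average.

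Sgsh, the sulfatase that removes sulfate from the glucosamine of heparan sulfate (chromosome 11, 119343425 to 119355536, minus strand), had the lowest log2 fold change of all 46 genes. It read 1.80, 2.01 and 2.27 FPKM in si-circCpsf6, against 4.33, 3.48 and 3.71 FPKM in si-NC. The groups were well apart, with means of 2.03 ± 0.235 FPKM in si-circCpsf6 and 3.84 ± 0.44 FPKM in si-NC (SD, n = 3 each; log2 fold change -0.68 ± 0.15 SE, limma adjusted p = 0.0668). Idua, which removes iduronic acid from the same polymer, read 1.09, 1.38 and 0.90 FPKM in si-circCpsf6, against 1.94, 2.76 and 1.01 FPKM in si-NC, with overlap (-0.41 ± 0.25, limma adjusted p = 0.406).

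A split by substrate, chosen after the values were seen and so given without a test, separated the enzymes. Of 9 genes for the breakdown of sphingolipids (Asah1, Smpd1, Galc, Gla, Glb1, Hexa, Neu1, Psap and Gm2a), 9 were above 0, from 0.26 to 1.16. Of 5 genes for the breakdown of heparan sulfate (Idua, Ids, Sgsh, Naglu and Gusb), 4 were below 0, and the values ran from -0.68 to 0.09.

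Proteases were led by Ctsd, the aspartic protease cathepsin D and the most abundant of all 47 transcripts. Ctsd read 556, 412 and 438 FPKM in si-circCpsf6, against 336, 396 and 297 FPKM in si-NC. The groups were apart, by the small gap between si-circCpsf6 replicate 2 and si-NC replicate 2 (log2 fold change 0.45 ± 0.19, limma adjusted p = 0.235). Ctsa, the carboxypeptidase that protects Neu1 and beta-galactosidase in a complex, averaged 23.7 ± 3.10 FPKM in si-circCpsf6 and 20.7 ± 3.62 FPKM in si-NC (SD, n = 3 each), with overlap. Neurl2 and Pltp overlap Ctsa on the opposite strand at about 3 FPKM each. Tpp1, tripeptidyl peptidase, read 15.2, 22.8 and 12.5 FPKM in si-circCpsf6, against 11.9, 30.3 and 18.1 FPKM in si-NC (-0.19 ± 0.34, limma adjusted p = 0.599). Replicate 2 was the highest library for Tpp1 in both groups.

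**Figure D3:**
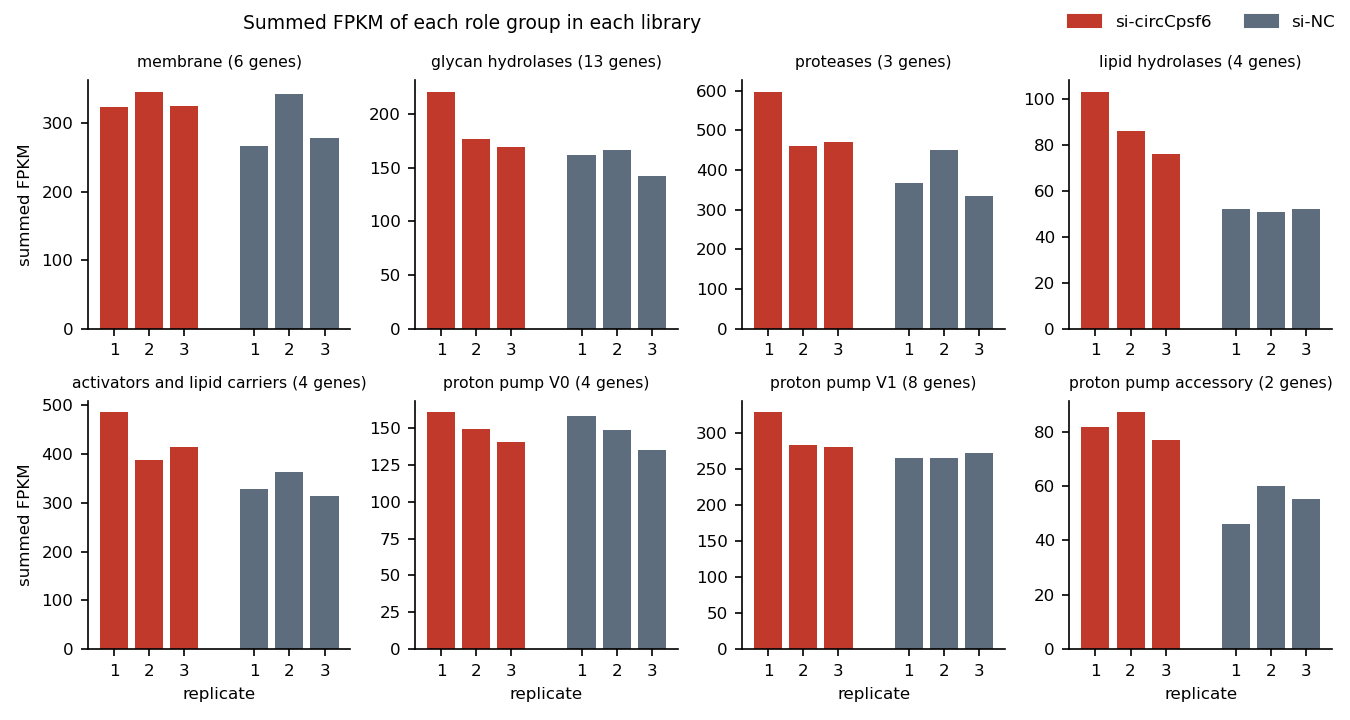
Summed FPKM (y axis, from 0) of 8 role groups in each of the 6 libraries, si-circCpsf6 replicates 1 to 3 left in red and si-NC replicates 1 to 3 right in grey. Lipid hydrolases stand apart (76.1 to 103 FPKM in si-circCpsf6, 50.7 to 52.2 FPKM in si-NC), with Asah1 making up most of their sum. Activators and carriers do too (388 to 486 FPKM in si-circCpsf6, 314 to 363 FPKM in si-NC), with Psap making up most of theirs. So do pump accessory proteins (77.0 to 87.2 FPKM in si-circCpsf6, 46.1 to 60.1 FPKM in si-NC). The glycan hydrolase, protease and V1 sums are apart by smaller gaps, and the membrane and V0 sums overlap.

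Of 6 membrane proteins, 3 were above 0 and 3 below, with a median of 0.06 and none past the test. Scarb2, also known as LIMP-2, carries glucocerebrosidase to the lysosome. It read 32.5, 33.2 and 33.7 FPKM in si-circCpsf6, against 22.7, 22.6 and 23.9 FPKM in si-NC. The gap between the groups was far larger than the range within either (log2 fold change 0.51 ± 0.11, limma adjusted p = 0.0681). Lamp1, a major glycoprotein of the lysosomal membrane, was the most abundant of the 6 at 233, 262 and 249 FPKM in si-circCpsf6, against 196, 263 and 210 FPKM in si-NC, with overlap (0.16 ± 0.16, limma adjusted p = 0.614). Its relative Lamp2 read 13.8, 11.0 and 10.4 FPKM in si-circCpsf6, against 7.61, 13.5 and 8.45 FPKM in si-NC. Ctns, the cystine exporter, averaged 4.37 ± 1.70 FPKM in si-circCpsf6 and 5.12 ± 0.951 FPKM in si-NC (SD, n = 3 each). The log2 fold changes of Mcoln1, a calcium-permeable channel, and of Cd63, a tetraspanin, were both -0.04. Cd63 has a named pseudogene, Cd63-ps, at 9.76 FPKM on average, and the sources used here do not give how reads were shared between them.

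Proton pump genes were above 0 in 10 of 14 cases, with a median of 0.17 and none past the test, and the parts of the pump differed in where their values fell. Of the 14, 7 had si-circCpsf6 wholly above si-NC (50%, against 12.8% of all tested genes) and 1 wholly below (7.14%, against 14.0%). Both accessory proteins were among the 7. Atp6ap1, which takes part in assembly of the V0 sector, read 36.3, 41.6 and 35.4 FPKM in si-circCpsf6, against 19.5, 27.4 and 24.2 FPKM in si-NC (log2 fold change 0.66 ± 0.16, limma adjusted p = 0.0783). Atp6ap2, the (pro)renin receptor, read 45.6, 45.6 and 41.6 FPKM in si-circCpsf6, against 26.6, 32.7 and 31.2 FPKM in si-NC (0.54 ± 0.13, limma adjusted p = 0.0808). For both genes the gap between the groups exceeded the range within either group.

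The 8 V1 subunits had a median of 0.16 and spanned -0.28 to 0.44. Atp6v1b2, an isoform of the nucleotide-binding B subunit, read 49.8, 45.2 and 43.7 FPKM in si-circCpsf6, against 35.4, 31.2 and 35.0 FPKM in si-NC (0.44 ± 0.12, limma adjusted p = 0.112). Atp6v1d, part of the central rotor, read 26.2, 24.2 and 21.7 FPKM in si-circCpsf6, against 16.8, 21.0 and 17.3 FPKM in si-NC (0.37 ± 0.14, limma adjusted p = 0.196). Atp6v1g1, part of the peripheral stalks and the most abundant pump transcript, read 115, 91.4 and 91.0 FPKM in si-circCpsf6, against 79.4, 76.7 and 76.3 FPKM in si-NC (0.34 ± 0.14, limma adjusted p = 0.227). All of these had separate groups, as did Atp6v1a, the catalytic subunit, and Atp6v1c1, at smaller log2 fold changes of 0.18 and 0.15. In all, 5 of the 8 had si-circCpsf6 wholly above si-NC (62.5%, against 12.8% of all tested genes). Wholly below was 1 of the 8 (12.5%, against 14.0%).

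Atp6v1e1, the stalk partner of the G subunit, lay the other way. It read 21.4, 21.1 and 22.0 FPKM in si-circCpsf6, against 24.7, 25.3 and 29.1 FPKM in si-NC (log2 fold change -0.28 ± 0.12, limma adjusted p = 0.249). Atp6v1f, a rotor subunit, read 63.2, 46.1 and 45.1 FPKM in si-circCpsf6, against 60.1, 60.3 and 64.9 FPKM in si-NC, with 1 si-circCpsf6 library inside the si-NC range (-0.27 ± 0.16, limma adjusted p = 0.389). Atp6v1h, a regulatory subunit, had the lowest level of the 14 and a log2 fold change of 0.02.

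The 4 V0 subunits overlapped between groups, with a median of -0.01 that includes Atp6v0c, whose value rested on 1 library. Atp6v0d1, which couples the rotor to the membrane ring, was the most abundant, at 83.9 ± 8.29 FPKM in si-circCpsf6 and 74.5 ± 5.92 FPKM in si-NC (SD, n = 3 each). Atp6v0b, a ring subunit, read 34.6, 26.3 and 26.0 FPKM in si-circCpsf6, against 27.1, 20.6 and 20.2 FPKM in si-NC (log2 fold change 0.34 ± 0.17, limma adjusted p = 0.320), and Atp6v0a1, an isoform of the large membrane subunit, had a log2 fold change of -0.19. Atp6v0c, the main ring subunit, read 13.4, 16.4 and 11.4 FPKM in si-circCpsf6, against 41.1, 15.6 and 11.0 FPKM in si-NC. A single library, si-NC replicate 1, set its log2 fold change of -0.48, which was 0.05 without that library. The named pseudogene Atp6v0c-ps2 read 57.3 to 64.2 FPKM in si-circCpsf6 and 51.9 to 72.4 FPKM in si-NC, above the gene itself in every library, so the level of Atp6v0c is uncertain where reads could be split between the copies.

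**Figure D4:**
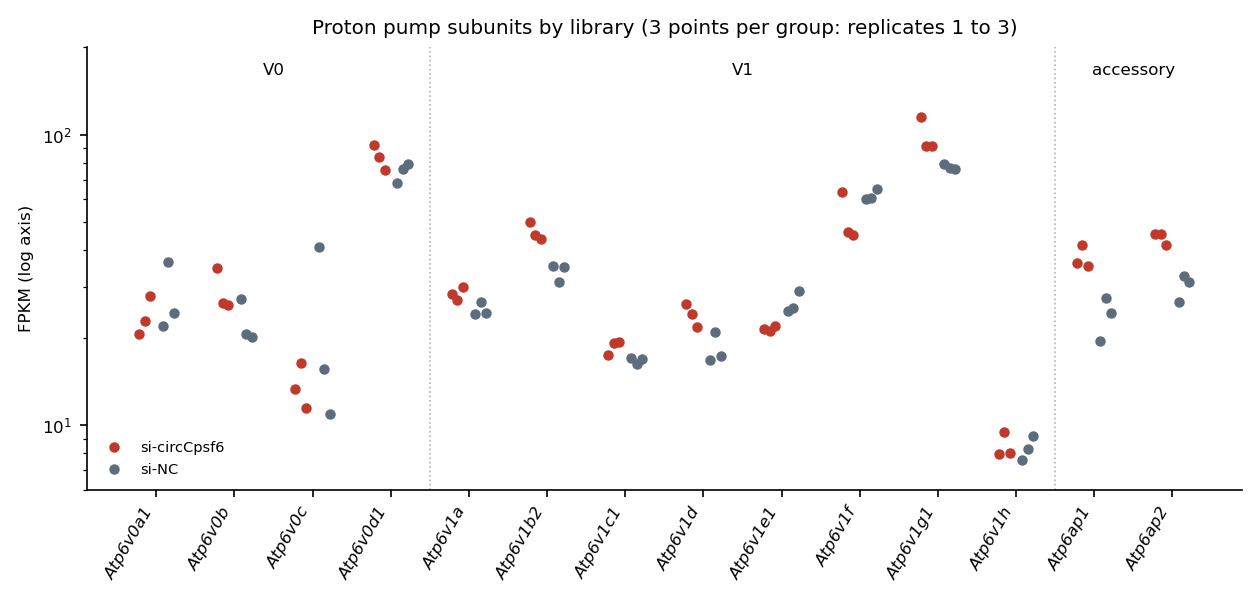
FPKM (log y axis) of the 14 proton pump genes in each library, si-circCpsf6 left in red and si-NC right in grey, 3 points per group for replicates 1 to 3, with dotted lines between V0, V1 and accessory genes. Both accessory genes and Atp6v1b2 have separate groups with si-circCpsf6 higher, Atp6v1e1 separate groups with si-circCpsf6 lower, and Atp6v0c a single high si-NC library.

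The members with the lowest log2 fold changes, Sgsh and Lipa, shared a short sequence. GCAGAAT is a heptamer that a search of these same libraries had picked out because genes with it in their 3' untranslated region (3' UTR) tended to be lower in si-circCpsf6, so its presence is a description and no test. In the longest annotated 3' UTR, sense strand, it stood in 2 of 46 tested members (4.35%), those being Sgsh and Lipa, and in 1189 of 10668 tested genes with a 3' UTR (11.1%). The other 44 members had a median of 0.26, and the lowest among them was -0.48. Mitf carried it as well but was too low to be tested. Whether the transcripts expressed in these cells include these 3' UTR stretches was not tested. The 3' UTR of Sgsh was the longest of the members, at 3819 bases, and that of Lipa had 1662. The length of the 3' UTR was not accounted for. The sites, sense strand, 5′ to 3′, with the heptamer in capitals, are given with those of the 2 other lysosomal genes that fell, as the stretches that these genes share:
Sgsh: cccccacacgGCAGAATattttccggt
Lipa: atacagacagGCAGAATgatacaactt
Mitf: acccctgggtGCAGAATtgtatctcag
Arsb: gactgtaaggGCAGAATaaatatcctc
Atp6v0e2: gggagtggcaGCAGAATacactatagc

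**Figure D5:**
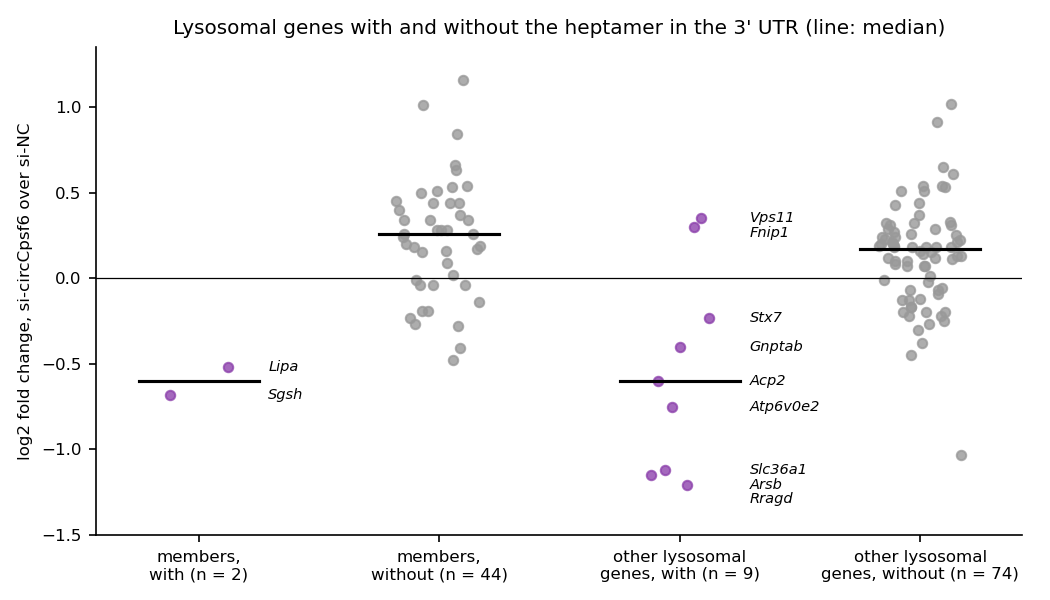
Log2 fold change (y axis, si-circCpsf6 over si-NC) of tested lysosomal genes with and without the heptamer in the longest annotated 3' UTR, for the members and for other lysosomal genes; each point is a gene and lines are medians. The 2 members with it lie at -0.68 and -0.52, below all 44 without it, and of 9 other lysosomal genes with it 7 lie below 0; as the heptamer was picked out by fold changes in these same libraries, the plot describes the genes and tests nothing.

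Of 95 lysosomal genes outside the 47 found in the table, 83 were tested: 54 were above 0 (65.1%) and the median log2 fold change was 0.14, with values from -1.21 to 1.02. By limma none rose and 2 fell at an adjusted p under 0.05 (2.41%, against 0.786% of all tested genes). At an unadjusted p under 0.05, 14 were higher (16.9%, against 10.2%) and 8 lower (9.64%, against 10.1%), the lower share being near that of all tested genes. Both genes that fell carried the heptamer, which adds no support, since it had been picked out by fold changes in these libraries. Arsb, the sulfatase of dermatan and chondroitin sulfate, read 3.60, 5.77 and 4.30 FPKM in si-circCpsf6, against 11.5, 11.8 and 10.3 FPKM in si-NC (log2 fold change -1.15 ± 0.17, limma adjusted p = 0.0314). Atp6v0e2, an isoform of a small V0 subunit, read 25.9, 25.7 and 26.9 FPKM in si-circCpsf6, against 41.5, 45.3 and 47.5 FPKM in si-NC (-0.75 ± 0.12, limma adjusted p = 0.0335). For both, the highest si-circCpsf6 value was well below the lowest si-NC value. Leaving out 1 library gave Arsb adjusted p-values from 0.0496 to 0.141 by limma, with the call kept only without si-circCpsf6 replicate 2, and gave Atp6v0e2 0.0551 to 0.175, with no call kept. In all, 9 tested genes of these lists carried the heptamer, with a median of -0.60, and 74 did not, with a median of 0.17. Over all tested genes the medians were -0.125 with and -0.013 without it, a much smaller difference.

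By list, 14 of 19 further hydrolases were above 0 (median 0.20). Of 19 further membrane proteins 13 were above 0 (median 0.18), with Cd164 at 0.53 ± 0.16 and the heptamer carrier Slc36a1, an amino acid exporter, at -1.12 ± 0.45, neither past the test. The 10 further proton pump genes were evenly divided (median 0.02), with the assembly factor Ccdc115 at -1.03 ± 0.22 (limma adjusted p = 0.0616). Genes for enzyme delivery were divided too, 5 of 10 above 0, with Cln6 at -0.38 ± 0.12 and the heptamer carrier Gnptab, which makes the mannose 6-phosphate tag, at -0.40 ± 0.18. Ragulator and folliculin genes, which link lysosomes to mTORC1, were above 0 in 9 of 12 cases (median 0.18), with Flcn at 0.54 ± 0.14 and the heptamer carrier Rragd at -1.21 ± 0.35. Of 13 genes for fusion and positioning, 8 were above 0 (median 0.07), with Arl8a at 0.37 ± 0.14 and the heptamer carrier Vps11 at 0.35 ± 0.13. Without si-circCpsf6 replicate 2, the lowest library for both, the log2 fold change was -0.56 for Slc36a1 and -0.75 for Rragd. None of Cd164, Cln6, Gnptab, Flcn, Rragd, Arl8a or Vps11 passed the test. The remaining carriers, Acp2, Stx7 and Fnip1, had log2 fold changes of -0.60, -0.23 and 0.30.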

How the data were processed

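RNA of 6 N2A libraries, 3 si-circCpsf6 and 3 si-NC, was read from the table the authors deposited, with FPKM per gene and library and, per the file headers, a fold ratio, its log2 value, a p-value and a q-value for each gene. Per the submitters' processing notes, Bowtie 0.12.2 was used, with mm8 and mm9 listed as builds. The labels name a small RNA kit, whereas the table holds gene FPKM. For the counting, its use of strand, and the authors' test, the sources used here give nothing. FPKM steps did not give whole fragments: among low values of transcripts of 150 to 1500 bases, at most 35.5% fell within 0.1 of a whole fragment. Depth is therefore unknown, and intervals from counting were not computed.

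Genes averaging 1 FPKM or more were tested with limma 3.58.1 (R 4.3.3) on log2(FPKM + 1), with an intensity trend and Benjamini-Hochberg adjustment over 12974 genes, threshold 0.05. The pseudocount understates changes of low genes. The procedure was tested on simulated data. Tried as alternatives were protein-coding genes alone, no trend, a block on replicate number, a filter at 5 FPKM or none, a pseudocount of 0.1, quantile normalization, median centring, leaving out each library, and the authors' q-values and fold changes. The members, lists and tests were chosen with earlier results of these data known. Named genes were the regulators, all called members, the members with the smallest p and the highest level in each role, those with the promoter core or the 3' UTR heptamer, and the leading 2 of each further list, some of which are not reported here. Cd63, Idua, Atp6v1c1, Atp6v1h, the genes split by substrate and the heptamer carriers outside the members were chosen after their values were seen. Positions and 3' UTRs (at least 50 bases) came from GENCODE M21 on GRCm38, matched by Ensembl gene ID.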

Additional observations from a re-analysis of the deposited data

How the results depend on the processing

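The direction of the 47 genes as a list held under each alternative run: 28 to 36 tested genes lay above 0, and the median log2 fold change was 0.19 to 0.30. The calls did not hold as well. Against 2 called members, 2 called other lysosomal genes and 219 called genes in all, the counts were 0, 0 and 13 without the filter on low values. They were 5, 7 and 715 by the q-values of the authors' deposited table. With protein-coding genes alone, 5 members and 437 genes were called, the members adding Scarb2, Sgsh and Npc2. Without the intensity trend 1 member was called. With the replicate number as a block, 0 members, 0 other lysosomal genes and 11 genes were called. The main fit did not pair the libraries by number. The deviations of same-numbered libraries correlated at 0.103, 0.129 and 0.084, and each library correlated best with its own number. Col1a1, a fibroblast gene, read 3.69, 0.16 and 1.13 FPKM in si-circCpsf6 replicates 1 to 3, against 4.53, 0.13 and 0.86 FPKM in si-NC. Lyz2 followed the number in the same order in both groups. Whether same-numbered libraries share a batch was not tested. Leaving out 1 library gave 0 members, 0 to 1 other lysosomal genes and 3 to 87 genes in all. Fewer libraries leave fewer degrees of freedom; beyond that the cause was not tested.

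For 10 members the sign changed in at least 1 of these fits, most of them near 0 but with Atp6v0c at -0.48 and Ctns at -0.23 as well. Leaving out 1 library moved the log2 fold change between -0.12 and 0.11 for Tfe3, -0.15 and 0.11 for Mcoln1, -0.12 and 0.07 for Cd63, -0.45 and 0.01 for Ctns, -0.01 and 0.19 for Gusb, -0.12 and 0.05 for Naglu, -0.49 and 0.15 for Tpp1, -0.33 and 0.02 for Atp6v0a1, -0.86 and 0.05 for Atp6v0c, and -0.05 and 0.08 for Atp6v1h. Tfe3 was at 0.00 after median centring. With 3 libraries in each group and unknown depth, genes of 1 to 3 FPKM such as Tfeb, Galc, Idua and Lipa are the least certain.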
